A study of Bos taurus with 24 samples.

Results

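The genes described here are the subunits of the proteasome, with their activators, assembly factors and 1 activator-interacting protein. They were found by name: each array feature with a single gene symbol that begins with PSMA, PSMB, PSMC, PSMD, PSME, PSMF or PSMG and a digit was taken. This gave 57 of the 17418 features, for 42 gene symbols. Of these, 40 had enough values to be fitted, among 9026 genes in all. PSMD9, with values on at most 17 arrays, and PSMG1, with values on at most 11, were not fitted. Another 3 features name a proteasome gene together with a second gene and were left out. PSMA2, PSMA4, PSMA8, PSMD14, PSME3, PSMF1 and PSMG4 were not analysed here as single genes.

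The proteasome degrades proteins that carry ubiquitin chains. Its barrel-shaped core has outer rings of alpha subunits, which gate the entrance, and inner rings of beta subunits, of which PSMB5, PSMB6 and PSMB7 cut the substrate. A regulatory cap holds a ring of ATPases that unfold the substrate and non-ATPase subunits that bind and remove ubiquitin. Interferon induces PSMB8, PSMB9 and PSMB10, which can take the places of PSMB5, PSMB6 and PSMB7 in the immunoproteasome, and the activator subunits PSME1 and PSME2. In the growing follicle, granulosa cells multiply and make steroid and peptide hormones inside a theca that also holds blood vessels and immune cells.

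The RNA came from 16 heifers (Bos taurus), 1 follicle from each: the largest on the ovary, 8 to 12 mm across. The follicles were hybridised in pairs to 24 two-colour arrays that form a connected loop, so that every follicle was on 3 arrays and carried both dyes. The labels name each follicle by an identifier alone (26, 27, 31, 33, 46, 8, 861, C10, C12, C13, C22, C26, C32, C35, H893 and J980). They give no treatment, strain or age, so the comparison is between follicles. Each animal gave 1 follicle, so the errors and p-values measure the spread between arrays of these RNA samples and not the spread between animals of a kind.

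A level is the log2 estimate of a gene in a follicle relative to the mean of the 16 follicles, and its error is the standard error (SE) of the loop fit, whose variance is estimated over all arrays and moderated across genes. Each follicle is on 3 arrays. Levels are thus relative within a gene and say nothing of which gene is more abundant. The direction of each ratio was taken as Cy5 over Cy3, the order in the labels, which do not state it. If it were the inverse, every level and difference below would change sign, and the tests between follicles would not change. In whole-follicle RNA, fewer cells of a type and less RNA per cell cannot be told apart.

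Follicle J980 stood apart from the rest over all genes. The SD of its levels over genes was 0.33, against 0.19 to 0.24 in the other 15, and 164 of its genes lay more than 1 from the mean, against 17 to 54. In J980 the mean level of 12 granulosa cell markers was -0.59 (median -0.34, 2 above 0). That of 27 cell cycle genes was -0.38 (median -0.35, 6 above 0). It was -0.38 for 11 stromal markers (median -0.33, 2 above 0) and 0.67 for 18 interferon-induced genes (median 0.32, 13 above 0). INHBA (-2.69) and FST (-2.05) lay far below the granulosa median, and MX1 (3.03) and ISG15 (3.11) far above the interferon median. The corresponding means were -0.15 for 6 theca markers, 0.10 for 33 leukocyte markers, 0.28 for 8 endothelial markers and -0.11 for 5 erythrocyte markers. The arrays used here carry ratios, so whether any of these markers was near background was not measured. The tests and correlations that J980 moved most are therefore given with and without it, and the part of its granulosa and cell cycle levels in them was not tested.

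Proteasome genes differed between follicles more often than genes in general, and core subunits made up most of those that did. By limma's moderated F test with Benjamini-Hochberg adjustment over all genes, 14 of the 40 measured members (35%) differed between follicles, where 11.8% of all genes did. At an unadjusted p under 0.05 there were 27 members, against 26.5% of all genes. The median SD of levels over follicles was 0.21 for the members and 0.17 for all genes. Whether the members' share differs from that of all genes was not tested. The 14 were 4 of the 5 measured alpha subunits, 4 of the 7 constitutive beta subunits, 1 of the 6 cap ATPases, 4 of the 10 non-ATPase cap subunits and 1 of the 5 interferon-inducible genes. Neither PSME4 and PSME3IP1 nor the 4 assembly factors passed, and 3 of these 6 genes had an unadjusted p under 0.05 (PSME4, PSME3IP1 and PSMD5). The member with the largest adjusted p inside the threshold was PSMD6 (0.0381), and those just outside were PSMA6 (0.0591), PSME1 (0.0618) and PSMB8 (0.0656). Without the dye term in the fit 7 members passed, with unmoderated variances 8, and without the array of 861 against C10 8. Among all genes 1061 passed in the fit given above, 614 without the dye term and 596 with unmoderated variances. The count of all genes without the array of 861 against C10 lay within 682 to 1172, the range over fits that left out 1 array each. Of the 24 fits that left out 1 array each, PSMD6 lost its call in 19, PSMA3 and PSMC3 in 13 each, PSMB2 in 2, and PSMA7 and PSMB3 in the 1 without that array; the other 8 members kept theirs.

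**Figure D1:**
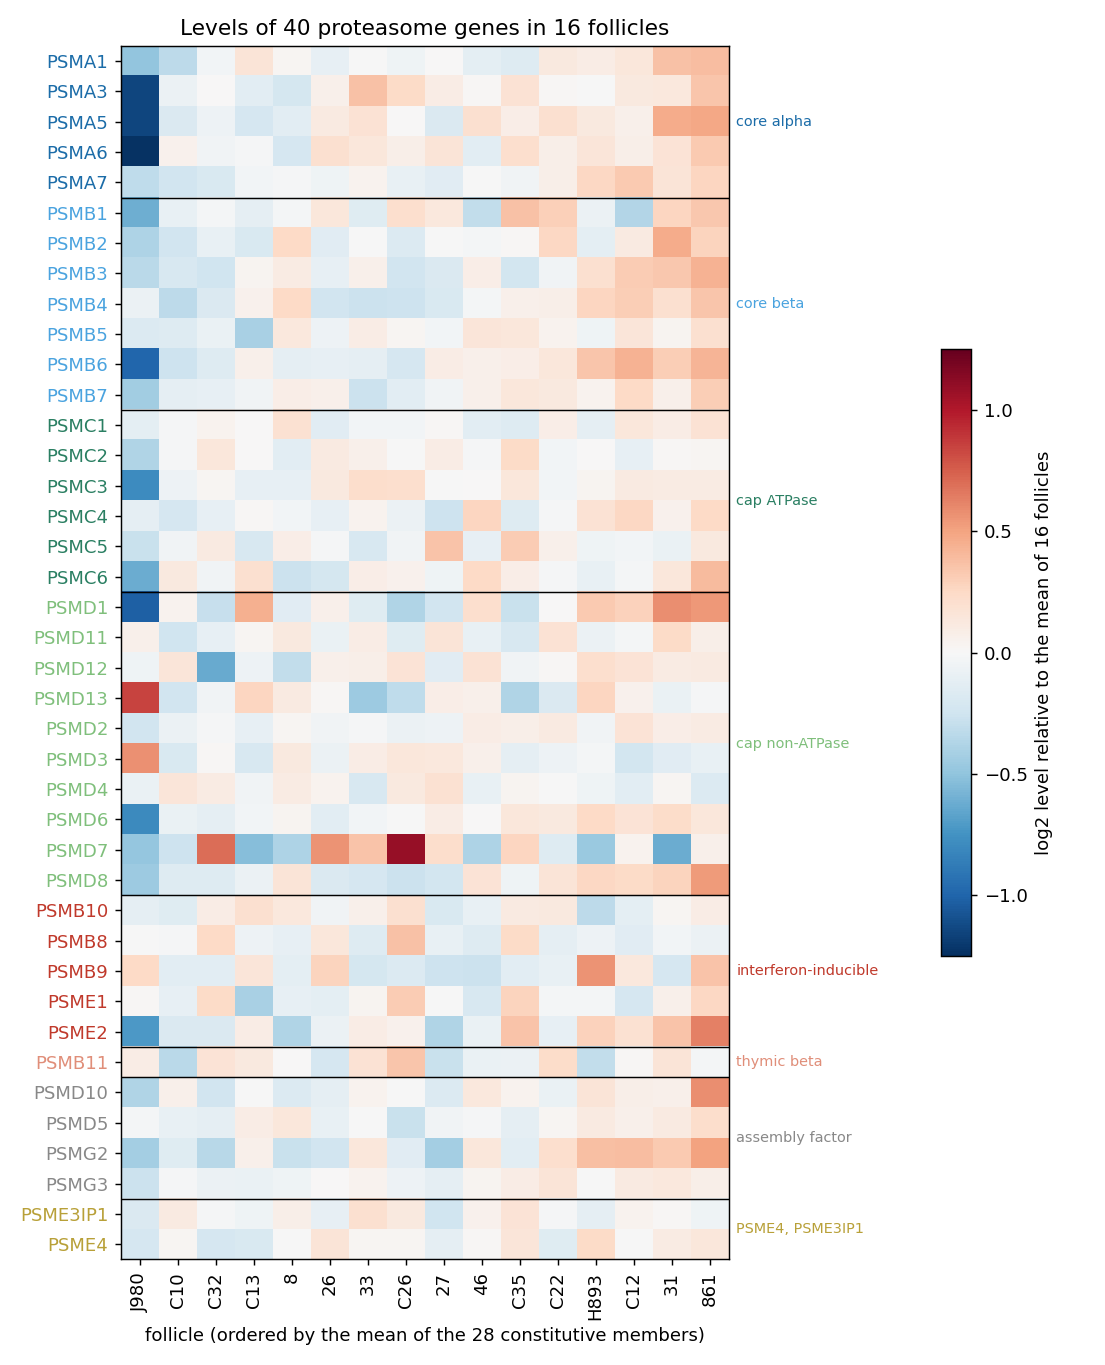
Levels of the 40 measured proteasome genes (rows, grouped by role) in the 16 follicles (columns, ordered by the mean of the 28 constitutive core and cap members), as log2 relative to the mean of the 16 follicles, blue below and red above. The J980 column at the left is blue for 34 of the 40 genes, PSMD13 and PSMD3 are red there, and PSMD7 has a pattern of its own with its highest level in C26.

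Among the alpha subunits, which form the outer rings of the core, all 5 measured genes had their lowest level in J980. PSMA5 was lowest in J980 at -1.15 ± 0.16, had a median of 0.07, and was highest in 861 at 0.48 ± 0.16 (limma F test, adjusted p = 0.0097). Its second lowest follicle was C13 at -0.21, so J980 lay well below the other 15. PSMA3 ran from -1.15 ± 0.18 in J980, with a median of 0.04, to 0.36 ± 0.16 in 33 (adjusted p = 0.0305), and PSMA6 from -1.24 ± 0.22 in J980, with a median of 0.07, to 0.33 ± 0.22 in 861 (adjusted p = 0.0591). For PSMA3 and PSMA6 the next lowest follicle was 8, at -0.22 and -0.21. PSMA1 and PSMA7 were graded more evenly over the follicles. PSMA1 was at -0.49 ± 0.09 in J980, at -0.33 in C10, at a median near 0 and at 0.38 ± 0.09 in 861 (adjusted p = 0.0041). PSMA7 was at -0.32 ± 0.07 in J980, at -0.24 in C10, at a median of -0.03 and at 0.32 ± 0.07 in C12 (adjusted p = 0.0155).

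Of the 7 constitutive beta subunits, which form the inner rings, all were below the mean in J980 and 5 were lowest there. PSMB6, the catalytic subunit with caspase-like activity, had the largest range of the 7. Its levels were -0.99 ± 0.13 in J980, -0.26 in C10, -0.21 in C26, -0.16 in C32, -0.11 in 8, -0.11 in 33, -0.10 in 26, 0.06 in 46, 0.06 in C13, 0.08 in C35, 0.10 in 27, 0.14 in C22, 0.31 in 31, 0.34 in H893, 0.42 in 861 and 0.44 ± 0.13 in C12. The step from J980 to the next follicle was larger than the whole spread of the other 15, and the range from lowest to highest was 2.69-fold (limma F test, adjusted p = 0.0056). The noncatalytic beta subunits PSMB3, PSMB2 and PSMB4 had narrower ranges, with 861 or 31 at the top. PSMB3 ran from -0.34 ± 0.09 in J980 to 0.43 ± 0.09 in 861 (adjusted p = 0.0127), PSMB2 from -0.39 ± 0.13 in J980 to 0.46 ± 0.13 in 31 (adjusted p = 0.0204) and PSMB4 from -0.33 ± 0.09 in C10 to 0.35 ± 0.10 in 861 (adjusted p = 0.0115). In PSMB4 J980 was at -0.08, close to the mean.

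The other catalytic subunits did not pass the test. PSMB7, with trypsin-like activity, ran from -0.43 ± 0.13 in J980 to 0.30 ± 0.13 in 861 (adjusted p = 0.105). PSMB5, with chymotrypsin-like activity, ran from -0.41 ± 0.17 in C13 to 0.20 ± 0.18 in 861 (adjusted p = 0.444), but its 2 features did not follow each other (r = -0.36 over the 16 follicles). The feature not annotated to an accession beginning with AV ran from -0.37 in J980 to 0.43 in 861 and passed alone (adjusted p = 0.0108). PSMB1, fitted on 21 arrays, ran from -0.61 ± 0.20 in J980, where it had values on 2 arrays, to 0.37 ± 0.23 in C35 (adjusted p = 0.0727). PSMB11, a beta subunit known from the thymus, ran from -0.34 ± 0.16 in C10 to 0.35 ± 0.16 in C26 (adjusted p = 0.371), and in RefSeq's bovine genes (ARS-UCD2.0) it overlaps PSMB5.

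In the cap, PSMC3 was the single ATPase past the threshold. It ran from -0.79 ± 0.12 in J980, with a median of 0.03, to 0.22 ± 0.11 in 33 (adjusted p = 0.0281), and its second lowest follicle was 8 at -0.11. Its 2 features were both lowest in J980, at -0.44 and -1.10, and without the AV feature the gene no longer passed (adjusted p = 0.152). PSMC2 shows the reverse: its features were at 0.22 and -0.98 in J980 (r = -0.55 between them), the averaged gene did not pass (adjusted p = 0.174), and without the AV feature it did (adjusted p = 8.35e-04). PSMC1 was among the 3 members with the smallest SD over follicles, at 0.12. The others were PSMG3, a chaperone of core assembly, at 0.11, and PSMD2, a large scaffold subunit of the cap base, at 0.10. Each of the 3 is an average of 2 features, and at least 1 feature of each had a larger SD than the average: the SDs were 0.194 and 0.261 for PSMC1 (r = -0.52 between them), 0.0527 and 0.211 for PSMD2 (r = -0.18) and 0.113 and 0.161 for PSMG3 (r = 0.25). A small SD of the average therefore does not show that the gene varied little.

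The non-ATPase cap subunits did not move as 1 group. PSMD1, a large scaffold subunit of the cap base, was lowest in J980 at -1.02 ± 0.14, next in C26 at -0.38, at a median of 0.02 and highest in 31 at 0.59 ± 0.13 (adjusted p = 0.0099). PSMD6, a subunit of the lid, ran from -0.79 ± 0.13 in J980, with a median of 0.02, to 0.25 ± 0.13 in H893 (adjusted p = 0.0381). PSMD13, another subunit of the lid, lay the other way: it was lowest in 33 at -0.45 ± 0.10, at a median near 0, and highest in J980 at 0.85 ± 0.11 (adjusted p = 0.0045). The next highest follicles of PSMD13 were C13 and H893, both at 0.27. Both features of PSMD13 were highest in J980, at 0.87 and 0.65. PSMD3, also a lid subunit, was highest in J980 at 0.57 ± 0.14 and did not pass (adjusted p = 0.191).

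PSMD7, a lid subunit that pairs with the deubiquitinating subunit PSMD14, had the largest SD of all members, 0.50. It was lowest in 31 at -0.62 ± 0.19, at a median of -0.06, and highest in C26 at 1.09 ± 0.18, followed by C32 at 0.69 and 26 at 0.56 (adjusted p = 0.0128). J980, at -0.48, was within the range of the others. The level of PSMD7, read from 1 feature, followed that of IGHG1, an immunoglobulin heavy chain gene made by plasma cells, over the 16 follicles (r = 0.933, rho = 0.859, as a description). Of all genes 28 had an r above 0.9 with IGHG1, and PSMD7 was the only member; the next member was PSMB8 at 0.710. Both PSMD7 and IGHG1 were highest in C26, the follicle with the highest mean of 33 leukocyte markers (0.32). PECAM1, 1 of 8 endothelial markers, was also highest in C26 (2.38 ± 0.31) and had an r of 0.983 with IGHG1. The mean of the 8 was highest in 26 (0.31). The part of immune or endothelial cells in the PSMD7 level was not tested.

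**Figure D2:**
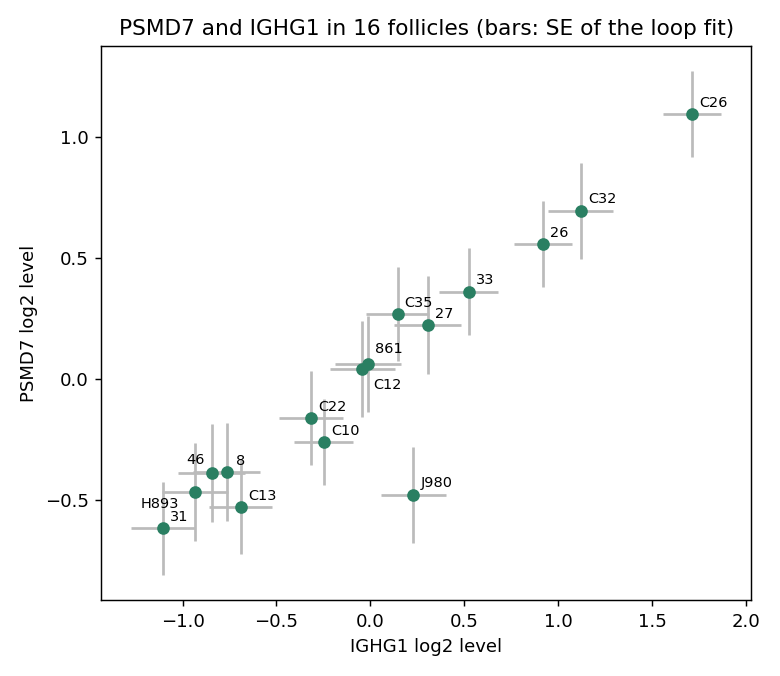
Level of PSMD7 (vertical axis) against that of IGHG1 (horizontal axis) in the 16 follicles, both as log2 relative to the mean of the 16 follicles, with bars for the SE of the loop fit. The follicles lie along a line from 31 at the lower left to C26 at the upper right, and J980 lies below it, with PSMD7 at -0.48.

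The largest group of single-follicle differences was the low core and cap genes in J980. Each follicle was set against the mean of the other 15 by limma, with Benjamini-Hochberg adjustment over all genes and follicles together. In J980 8 of the 40 members were lower (20%), against 2.58% of all genes. They were the alpha subunits PSMA1, PSMA3, PSMA5 and PSMA6, the beta subunit PSMB6, the ATPase PSMC3, and the cap subunits PSMD1 and PSMD6, with adjusted p from 0.0060 (PSMB6) to 0.0383 (PSMA1). PSMB6 was lower than the mean of the other 15 by a log2 difference of -1.06, and PSMA5 by -1.23. PSMD13 was the only member called higher in J980, by 0.91 (adjusted p = 0.0070), where 0.565% of all genes were higher.

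Over the 28 constitutive core and cap members, 25 were below the mean in J980 and 18 had their lowest level there, where 49.5% and 15.5% of all genes did. The mean level in J980 was -0.87 over the alpha subunits, -0.43 over the constitutive beta subunits, -0.38 over the ATPases, -0.16 over the non-ATPase cap subunits and -0.11 over the 5 inducible members. The mean over all 28 was -0.40 in J980, against -0.12 in C10, the lowest of the other follicles, and 0.23 in 861, the highest.

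**Figure D3:**
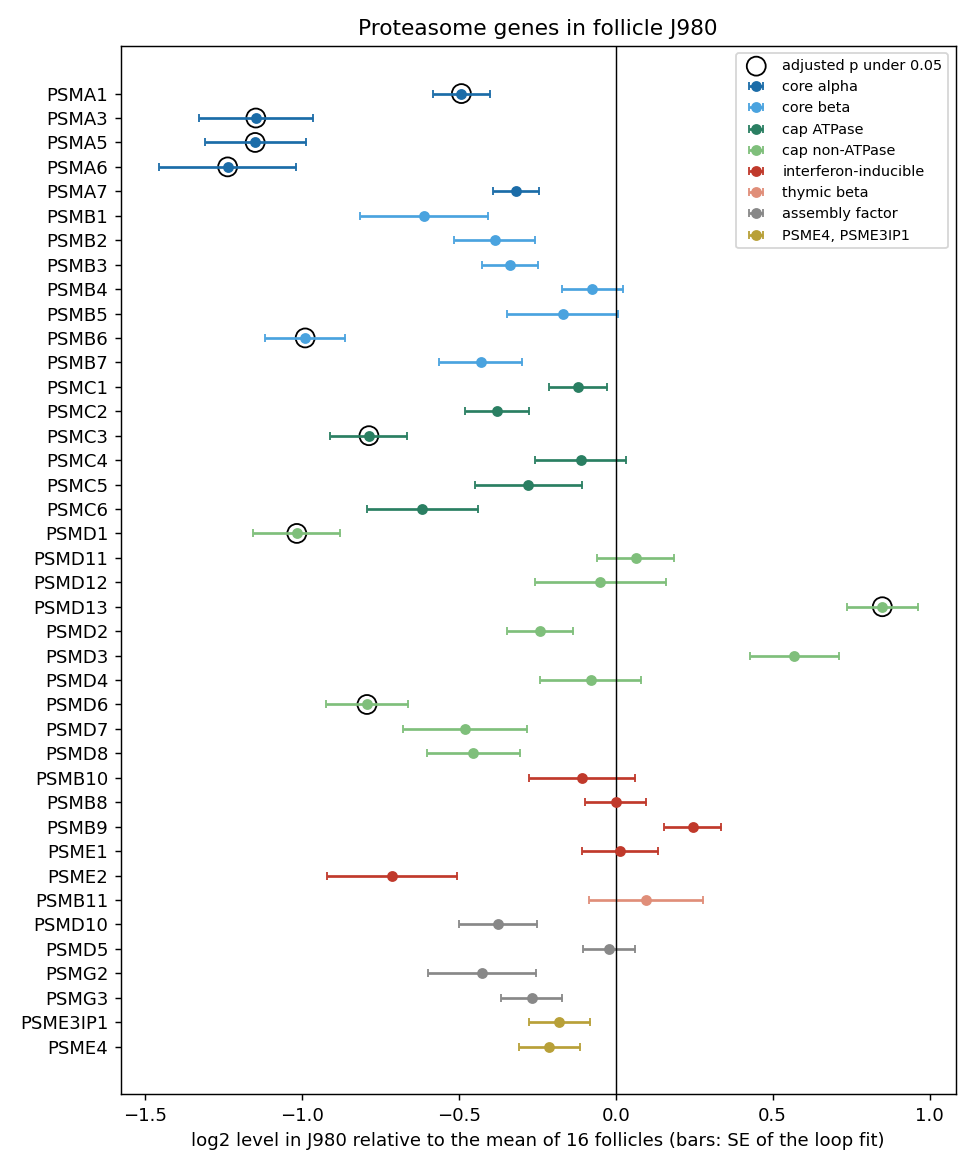
Level of each of the 40 proteasome genes in follicle J980, as log2 relative to the mean of the 16 follicles, with bars for the SE of the loop fit and open circles where J980 differed from the mean of the other 15 (adjusted p under 0.05). The alpha subunits PSMA3, PSMA5 and PSMA6 lie furthest to the left, below -1.1, PSMD13 lies furthest to the right at 0.85, and the inducible genes other than PSME2 lie near or above 0.

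The 3 arrays of J980 each showed the same lean. Against follicle 8, 23 of the 28 constitutive members were lower in J980, with a median log2 ratio of -0.35. Against 27 there were 22 of the 27 with a value on that array (median -0.45). Against 26, where J980 carried the other dye, there were 23 of 28 (median -0.20). Of all genes 51.3%, 50.8% and 49.7% were lower in J980 on the arrays with 8, 27 and 26, with medians of -0.008, -0.006 and 0.002. On all 3 arrays together 18 constitutive members were lower in J980 (66.7% of those with a value on all 3), against 18.8% of all genes. For PSMB6 the ratios of J980 over its partner were -0.64 against 8, -1.26 against 27 and -0.94 against 26. PSMA5 gave -0.79, -0.94 and -1.53, and PSMD1 gave -1.06, -1.003 and -0.81 in the same order. PSMD13 was higher on each array, at 0.49, 0.80 and 0.94.

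The calls in J980 depended on single arrays of the loop. Without the array of C10 against 26 or that of C26 against 33, 0 members were called lower in J980 by limma, with 12 of 39 and 15 of 40 at an unadjusted p under 0.05 (6.74% and 9.49% of all genes). The number of genes of any kind called lower in J980 then fell from 233 to 5 and 15. The mean level of the constitutive members in J980 was between -0.45 and -0.37 over the fits that left out 1 array each, and -0.29 with arrays scaled to the same spread. Single members moved further: leaving out 1 array at a time, J980 was at -1.49 to -0.78 for PSMD1, at -1.34 to -0.78 for PSMA5, at -1.65 to -0.95 for PSMA6, at -1.41 to -0.85 for PSMA3 and at -0.61 to -0.36 for PSMA1. All of these levels stayed below 0. Of the 24 fits that left out 1 array each, the call in J980 was lost in 21 for PSMA1 and in 17 for PSMA6. It was lost in 7 for PSMD6, in 6 for PSMA3 and in 5 for PSMC3. For PSMA5, PSMB6 and PSMD13 it was lost in 3 each, and for PSMD1 in 2. Without the array of 26 against J980, 2 members were called, without C32 against C26 3, and without J980 against 27 or 861 against C10 4. There were 5 without C22 against C26, 33 against C13, or 31 against C10. All genes called lower in J980 were not counted in these further fits, so these member counts have no background share beside them.

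Leaving J980 and its arrays out altogether kept differences between the remaining 15 follicles. By limma's F test, 9 of the 40 members then passed (22.5%), against 7.49% of all genes. These 9 were all among the 14: PSMA1, PSMA5, PSMA7, PSMB3, PSMB4, PSMB6, PSMB9, PSMD7 and PSMD13. PSMA3, PSMB2, PSMC3, PSMD1 and PSMD6 were past the threshold with J980 and not without it, with adjusted p from 0.0961 to 0.268. Among the 15, C10 was lowest for PSMA1 (-0.31), PSMA5 (-0.43), PSMA7 (-0.27) and PSMB6 (-0.38).

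Single members were also called in 2 other follicles. PSMB9 was higher in H893 than in the other 15 (adjusted p = 0.0220), where 0.299% of all genes were higher, and PSMD7 was higher in C26 (adjusted p = 0.0202), where 0.787% were. The level of PSMD7 in C26 was 0.72 without the array of C26 against 33, against 1.09 with it. Of the 24 fits that left out 1 array each, the PSMB9 call in H893 was lost in 11 (level 0.48 to 0.64) and the PSMD7 call in C26 in 7 (level 0.72 to 1.17). Follicle 861 held the highest mean of each of the 5 classes, from 0.13 for the non-ATPase cap subunits to 0.36 for the alpha subunits. No member was called higher there by limma, where 0.421% of all genes were, and 15 of the 40 were higher at an unadjusted p under 0.05, against 5.67% of all genes. In C10, with the lowest means after J980 for the alpha, beta and non-ATPase classes, 7 members were lower at that unadjusted threshold, against 4.78% of all genes, and 0 were called lower, against 0.288% of all genes.

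**Figure D4:**
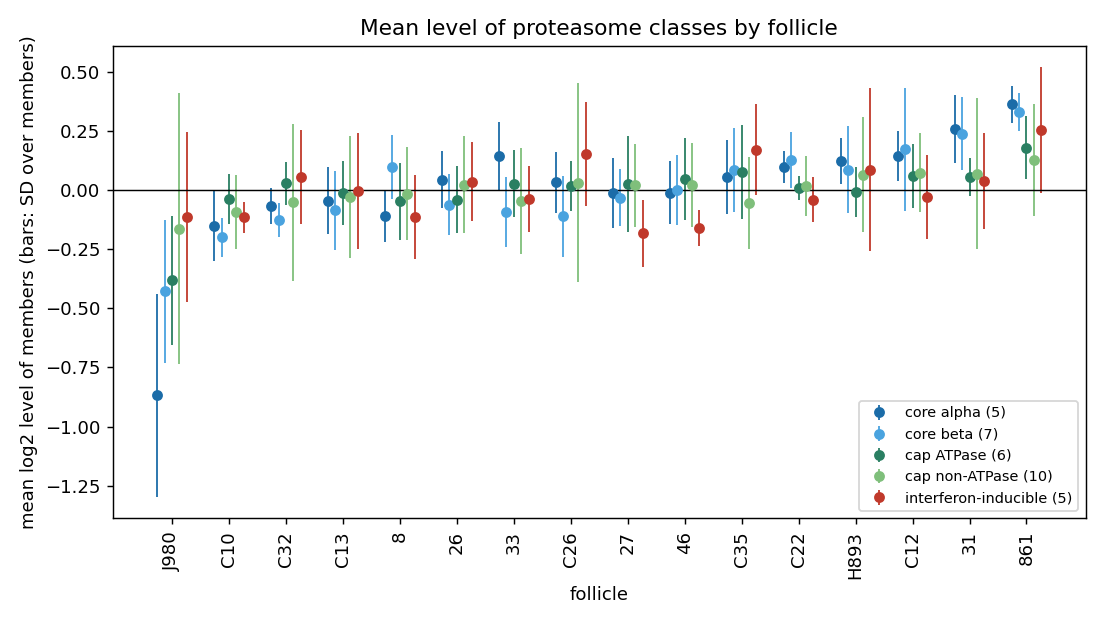
Mean log2 level of 5 classes of proteasome genes in each follicle, with bars for the SD over the members of the class, follicles ordered by the mean of the 28 constitutive members. In J980 the means step from -0.87 for the alpha subunits to -0.11 for the inducible genes, and in 861 all 5 lie above 0.

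Of the 5 interferon-inducible members, 1 passed the test between follicles, although PSMB8, PSMB10 and PSME1 also passed with features on all 24 arrays. That 1 was PSMB9, which replaces PSMB6 (limma F test, adjusted p = 0.0027). Its levels were -0.26 ± 0.09 in 46, -0.26 in 27, -0.22 in 33, -0.21 in 31, -0.17 in C26, -0.13 in C10, -0.13 in C32, -0.13 in C35, -0.12 in 8, -0.09 in C22, 0.13 in C12, 0.15 in C13, 0.25 in J980, 0.28 in 26, 0.36 in 861 and 0.56 ± 0.09 in H893. The 10 lowest follicles lay within a narrow band below the mean, and H893 and 861 lay highest. PSMB9 was read from 1 feature. A feature that names PSMB9 together with RALB, left out here, had an SD of 0.055 over follicles (limma F test, adjusted p = 0.975). PSMB8, which replaces PSMB5, ran from -0.16 ± 0.10 in 46, with a median of -0.06, to 0.37 ± 0.09 in C26 (adjusted p = 0.0656). Its 2 features did not follow each other (r = -0.37), and without the AV feature it ran from -0.58 in 27 to 0.50 in C26 and passed (adjusted p = 0.0203). The levels of PSMB8 and PSMB9 had an r of -0.08 over the 16 follicles. PSMB8 and PSME1 had an r of 0.63 (0.65 without J980), and PSME1 and PSME2 of 0.26 (0.51 without J980), all as a description.

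PSMB10, which replaces PSMB7, ran from -0.33 ± 0.17 in H893, with a median of 0.05, to 0.20 ± 0.15 in C26 (adjusted p = 0.575). Its 2 features did not follow each other (r = -0.46). The one with values on all 24 arrays ran from -0.62 in H893 to 0.59 in C13 (limma F test fitted per feature, adjusted p = 0.0530), and in the fit restricted to features on all 24 arrays PSMB10 passed by limma's F test. PSME1 and PSME2, which together form an activator ring that opens the core, had different extremes. PSME1 ran from -0.40 ± 0.12 in C13, with a median of -0.02, to 0.32 ± 0.11 in C26 (adjusted p = 0.0618). PSME2 ran from -0.71 ± 0.21 in J980, with a median of -0.01, to 0.63 ± 0.21 in 861 (adjusted p = 0.139), and so shared both extremes with many core genes. PSME4, the nuclear activator of the core, ran from -0.21 ± 0.10 in J980 to 0.24 ± 0.10 in H893 (adjusted p = 0.119).

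The exchange of catalytic subunits was examined as the difference between an inducible gene and its constitutive counterpart on each array. PSMB9 minus PSMB6, with each gene read from 1 feature, differed between follicles (limma F test, adjusted p = 9.31e-04). It was lowest in 31 at -0.52 ± 0.12, had a median of -0.03, and was highest in J980 at 1.24 ± 0.13, where PSMB6 was at its lowest and PSMB9 was at 0.25. The next highest follicle was 26 at 0.38. Without J980 the difference still passed, with a smaller range from -0.43 in 31 to 0.49 in 26 (adjusted p = 0.0235). PSMB8 minus PSMB5 ran from -0.31 ± 0.18 in 46 to 0.34 ± 0.16 in C26 and did not pass (adjusted p = 0.137), but it passed without AV features (adjusted p = 0.00498), with 1 feature per gene (0.0355) and without the array of C32 against C26 (0.0454). PSMB10 minus PSMB7 ran from -0.38 ± 0.17 in H893 to 0.34 ± 0.15 in 33 (adjusted p = 0.238). A difference here does not show which gene changed and gives no ratio of one transcript to the other. In J980 against the other 15 follicles PSMB6 was called lower (limma, adjusted p = 0.0060), and PSMB9 was not called (adjusted p = 0.375).

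**Figure D5:**
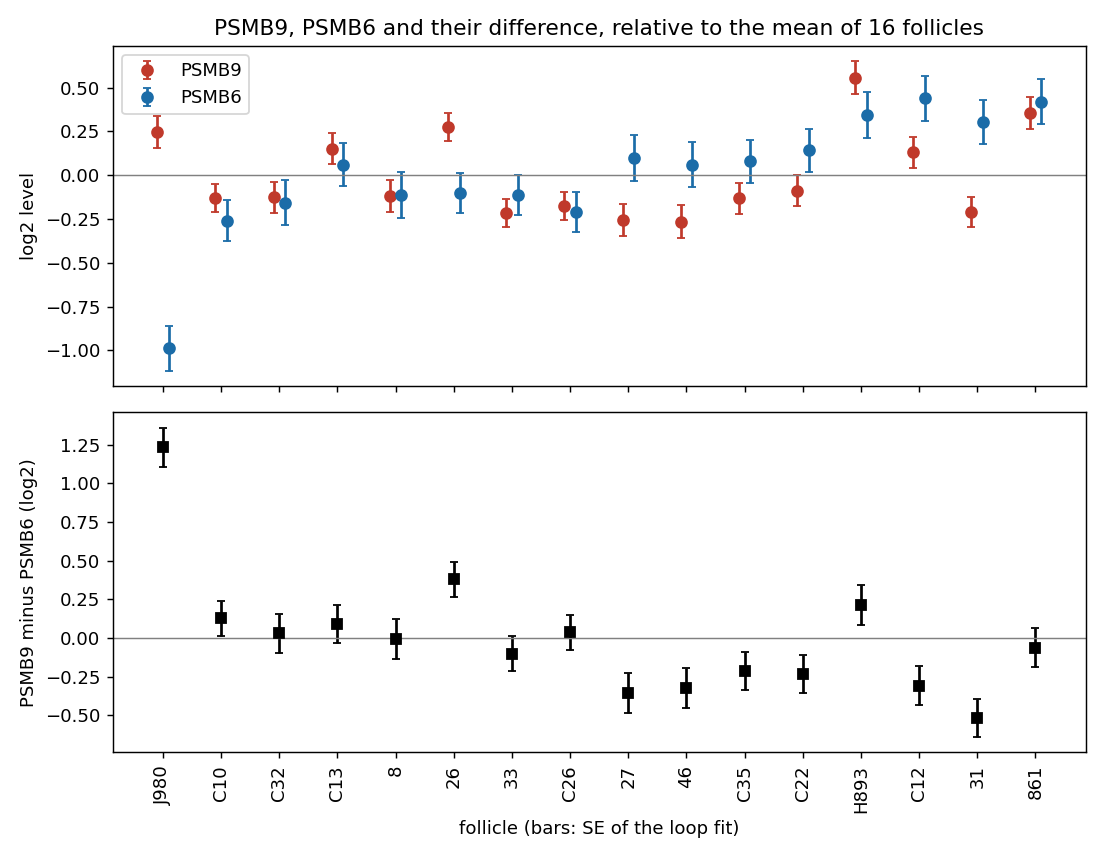
Upper panel: levels of PSMB9 (red) and PSMB6 (blue) in the 16 follicles, as log2 relative to the mean of the 16 follicles. Lower panel: PSMB9 minus PSMB6 on the same scale; bars are the SE of the loop fit, and the difference is highest in J980 at 1.24 and lowest in 31 at -0.52.

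Of the classes compared, core subunits had the highest median correlations with each other over the follicles. As a description over 16 follicles that share the loop and its error, the median Pearson's r was 0.73 among the 10 pairs of alpha subunits, 0.60 among the 21 pairs of beta subunits and 0.65 between alpha and beta subunits. Without J980 these medians were 0.56, 0.58 and 0.46. Pairs of ATPases had a median of 0.23 (0.07 without J980) and pairs of non-ATPase cap subunits of -0.02 (0.06 without), and all pairs of genes had a median of 0. Among all 378 pairs of constitutive members the median was 0.37 (0.22 without J980). It was 0.20 among the 10 pairs of inducible members (0.33 without) and 0.06 between constitutive and inducible members (0.09 without). PSME2 had an r of 0.82 to the mean of the constitutive members (0.78 without J980). For PSMB9 this r was 0.02 with J980 and 0.35 without it, and for PSMB8 it was -0.16 and -0.26. PSMD13 and PSMD3 ran against the constitutive mean at -0.58 and -0.72, and without J980 these were 0.01 and -0.23.

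The inducible members and their counterparts were set against the mean level of 18 interferon-induced genes and of 33 leukocyte markers, in 16 relations over the 16 follicles. By Pearson's r 1 relation passed: PSMB8 rose with the leukocyte markers (r = 0.716, permutation p = 0.00271, Benjamini-Hochberg adjusted p = 0.0434). Its Spearman's rho was 0.544 (permutation p = 0.0321, adjusted p = 0.128), and r was 0.313 without C26 and C32, so the relation rests on those follicles. It was 0.356 without AV features (adjusted permutation p = 0.282). Of the 24 fits that left out 1 array each, PSMB8 did not pass by r in 10 (r 0.530 to 0.778 over the 24). Nor did it pass with 1 feature per gene. By rho the only relation that passed was PSMB6, which fell as the leukocyte markers rose (rho = -0.718, permutation p = 0.0022, adjusted p = 0.0352), with an r of -0.568 (permutation p = 0.0238, adjusted p = 0.095). Its rho without C26 and C32 was -0.675, and without J980 it no longer passed (rho = -0.664, adjusted permutation p = 0.0674). Leaving out 1 array at a time, PSMB6 did not pass by rho in 5 of 24 fits (rho -0.856 to -0.535 over the 24). Nor did it pass with features on all 24 arrays. At an unadjusted p under 0.05 there were 5 relations by r and 4 by rho.

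None of the inducible genes passed with the interferon list over the 16 follicles. PSME1 came nearest (r = 0.628, permutation p = 0.00904, adjusted p = 0.0723; rho = 0.647, permutation p = 0.00867, adjusted p = 0.0593). Of the 24 fits that left out 1 array each, it passed by rho in 12 (rho 0.506 to 0.741) and by r in 3 (r 0.445 to 0.730). It also passed by rho with arrays scaled to the same spread and with 1 feature per gene, and by r with features on at least 16 arrays. Without J980 its r was 0.679 and its adjusted permutation p 0.0394, and without 33 and J980, the follicles with the highest mean of the list, r was 0.789. The r of PSMB9 with the interferon list was 0.134 (permutation p = 0.62, adjusted p = 0.688). In J980 and 861, with interferon means of 0.67 and 0.54, PSMB9 was above its mean. In 33, C35 and C26, with interferon means of 0.63, 0.43 and 0.42, PSMB9 was below it (-0.22, -0.13 and -0.17). In H893, where PSMB9 was highest, the interferon mean was -0.09. The permutations treat follicles as exchangeable and ignore that the loop links their errors.

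Other genes of the ubiquitin pathway and of antigen processing were read from 4 lists. In all, 11 of 69 measured genes (15.9%) differed between follicles by limma's F test, against 11.8% of all genes. Without J980 8 of 68 did, against 7.49% of all genes. Among 28 genes of ubiquitin conjugation 7 differed. UBE2C, the ubiquitin-conjugating enzyme of the anaphase-promoting complex, ran from -0.74 ± 0.10 in J980 to 0.48 ± 0.10 in C22 (adjusted p = 0.0011, and 0.0137 without J980). UBE2V2 and UBE2N, partners in making ubiquitin chains, were both lowest in J980, at -0.68 ± 0.09 and -0.55 ± 0.11 (adjusted p = 0.0058 and 0.0098), and did not pass without it (0.0548 and 0.0671). UBE2L6, the conjugating enzyme of ISG15 and also a gene of the interferon list, had its top level in J980, 0.95 ± 0.18, and its lowest in 31, -0.69 ± 0.18 (adjusted p = 0.0026, and 0.0022 without J980). The 1 measured gene among ubiquitin precursors and activating enzymes was UBA1, the main ubiquitin-activating enzyme, which ran from -0.21 ± 0.10 in J980 to 0.35 ± 0.10 in 46 (adjusted p = 0.169).

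Of 31 proteasome-associated genes, POMP alone differed. POMP, the maturation factor that helps assemble the core, ran from -0.86 ± 0.13 in J980 to 0.33 ± 0.13 in 861 (adjusted p = 0.0313). It did not pass without J980 (adjusted p = 0.393). Its level had an r of 0.915 with the mean of the constitutive members, and 0.729 without J980. Of 9 genes of class I antigen processing 3 differed. BOLA, the class I heavy chain, ran from -0.97 ± 0.12 in 27 to 0.73 ± 0.10 in 33 (adjusted p = 1e-04). TAP1, a subunit of the peptide transporter, ran from -0.34 ± 0.10 in J980 to 0.45 ± 0.10 in 46 (adjusted p = 0.0097), and B2M, the class I light chain, from -0.45 ± 0.13 in 8 to 0.48 ± 0.11 in 33 (adjusted p = 0.0122). All 3 passed without J980 as well (adjusted p = 0.0013, 0.0297 and 0.0066). The 3 genes had their extremes in follicles other than H893, where PSMB9 was highest.

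Outside the proteasome, the genes most like the constitutive mean were sought among 1047 genes past the threshold, over the 16 follicles. They were SRPK2, a kinase of splicing factors (r = 0.962), PFDN1, a subunit of the prefoldin chaperone (0.943), and the mitochondrial ribosomal protein genes MRPS17 (0.938), MRPL55 (0.933) and MRPL18 (0.929). Without J980 these r were 0.895, 0.891, 0.846, 0.795 and 0.726. The genes most like the mean of the inducible members had lower r, led by IL32 at 0.657, WDR55 at 0.623, BEX3 at 0.621, RBKS at 0.595 and CETN2 at 0.580. All of these r were picked as the highest of many and are given as a description.

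Members read from more than 1 feature were less certain than the standard errors show. Of the 40 members, 26 had 1 feature and 14 had several, and the median r between features of a member was -0.27, against 0.08 over 2664 genes with several features. Where both features of a pair passed the F test, the median r was 0.963 for 1303 pairs without a feature annotated to an AV accession, and 0.231 for 104 pairs with 1 such feature; those pairs are chosen by their own test. Where neither feature passed, the medians were 0.079 for 3078 pairs and 0.048 for 605 pairs. Members without an AV feature could disagree too, such as PSMC1 (r = -0.52) and PSMC4 (-0.46). Of the members, 7 had an AV feature: PSMB5, PSMB8, PSMB10, PSMC2, PSMC3, PSMD4 and PSMG3. Without AV features 16 members passed, 13 of them among the 14, with PSMB5, PSMB8 and PSMC2 gained and PSMC3 lost. Among all genes 1052 passed in that fit, against 1061 with all features. In that fit PSMC2 was at -0.98 in J980 and lower there than in the other 15 (limma, adjusted p = 0.0016). PSMC3, called lower in J980 with all features, was at -0.44 there and was not called (limma, adjusted p = 0.169).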

How the data were processed

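Per the labels' protocols, column-purified RNA was labelled with Cy5 and Cy3 dendrimers, and slides were read on an Axon scanner with GenePix Pro 4.0.1.12. The deposited values are the authors' log ratios of the channels of an array, read here as log2: the largest (6.32 in size) exceeds the limit of a log10 ratio from a 16-bit scanner (4.82). The base, direction, background correction, spot filter and normalization of these ratios are not given in the sources. Each array held 16094 to 17028 values. Names come from the 2007 platform annotation, and the 40 fitted members matched the RefSeq table of ARS-UCD2.0 by gene ID, with no symbol changed. The number of unused value columns was 0.

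After centring every array on its median, features present on at least 20 of 24 arrays were kept, and those of 1 symbol were averaged. A follicle effect (1 for Cy5, -1 for Cy3) and a common dye term were fitted with limma 3.58.1 in R 4.3.3, with 8 residual degrees of freedom for complete genes. PSMB1 was fitted on 21 arrays and PSMG2 on 23. The median SE of a level was 0.13. P-values were adjusted by Benjamini-Hochberg over all genes at 0.05. Permutation tests were two-sided with 100000 resamples. The fit was also run on simulated data with independent normal errors for each gene and array. Such data hold no error shared by the genes of an array, so they do not bear on it. Figures were drawn with matplotlib 3.10.9.

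The members and lists were chosen with earlier results of these data known. Named are the members past the F test, the inducible members and their counterparts, PSME4, the 3 members with the smallest SD, up to 4 genes a pathway list, and the 5 genes most like each class mean. PSMA6, PSMB1, PSMB11, PSMC2, PSMD3, PSMD5 and PSME3IP1 were named after their values were seen. The alternatives were centring, scaling, the number of arrays, the dye term, moderation, the choice of feature, and the arrays or follicles included. Leaving out AV features, and members that follow IGHG1, were added after the data were seen.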

Additional observations from a re-analysis of the deposited data

How the results depend on the processing

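Loop position and only 3 arrays a follicle limit these results, and signal over background was not known. Settings that moved a count by over 1.5 times were as follows, and the cause was not tested. Without the dye term 7 members and 614 genes differed between follicles, and with unmoderated variances 8 and 596. Without J980 and its arrays 9 members and 674 genes differed, 4 members differed in 1 follicle from the rest, and 2 relations to markers passed. All genes that differed in 1 follicle from the rest were not counted in that fit. With arrays scaled to the same spread, and with unmoderated variances, 5 members were lower in J980, and all genes lower there were not counted. With features on at least 16 arrays 2 relations passed. PSMB8 minus PSMB5 passed with 1 feature per gene (adjusted p = 0.0355) and without AV features (adjusted p = 0.00498), both by limma, and with 1 feature per gene the median r among inducible members was -0.12.

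Leaving out 1 array at a time gave 8 to 16 members and 682 to 1172 genes that differed, 0 to 15 calls of a member in 1 follicle, 0 to 8 members lower in J980, 9 to 15 other pathway genes and 0 to 5 relations. The lowest gene counts came without 33 against C13 (682) and 31 against C10 (688). Calls of members in 1 follicle numbered 0 without C10 against 26 or C26 against 33, 3 without 26 against J980 and 4 without C32 against C26. They numbered 6 without 861 against C10, C22 against C26 or 33 against C13, and 7 without 33 against C12, 31 against C10 or J980 against 27. Without C10 against 26 or C26 against 33, all genes called lower in J980 also fell, from 233 to 5 and 15. All genes called higher in C26 fell from 71 to 12 and 0. In the other fits that left out 1 array, calls of all genes in 1 follicle were not counted. The member counts there have no background share. The limma adjusted p ranged from 9.19e-04 to 0.0046 for PSMB9 minus PSMB6, from 0.0454 to 0.261 for PSMB8 minus PSMB5 and from 0.0584 to 0.420 for PSMB10 minus PSMB7. The constitutive mean in J980 ranged from -0.45 to -0.37 and the inducible mean from -0.24 to -0.03. The SD over follicles ranged from 0.130 to 0.146 for the constitutive mean and from 0.117 to 0.169 for the inducible mean. The median r ranged from 0.24 to 0.40 within constitutive members, from -0.05 to 0.24 within inducible members and from -0.03 to 0.13 between them.

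Over all alternatives, the tests of 21 members between follicles kept their side of the threshold in 611 of 693 cases, were lost in 71 and were gained in 11. Calls of 1 member in 1 follicle were kept in 257 of 354 and lost in 97, and 0 turned in direction. The follicles that shared an array were compared within that array by the loop fit. No other pairing was used, because replicate numbers were given in accession order and pair no samples across follicles.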

Other observations

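The 3 features that name a proteasome gene together with a second gene were fitted by themselves. The feature for LOC781156 and PSMA2, an alpha subunit, had values on 20 arrays and ran from -1.87 ± 0.28 in J980 to 0.50 ± 0.20 in 861 (limma F test, adjusted p = 0.0660). The feature for PSMB9 and RALB, a small GTPase, had an SD of 0.055 over follicles (adjusted p = 0.975) and an r of 0.289 with the PSMB9 level. The feature for PSMF1, an inhibitor of the core, and MYOD1 ran from -0.34 ± 0.15 in 27 to 0.25 ± 0.15 in 46 (adjusted p = 0.742). Which of the named genes each feature measures cannot be told apart.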
